A study of Mus musculus with 17 samples.

Results

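The proteasome is the protease that degrades ubiquitin-tagged proteins in every mammalian cell. Its barrel-shaped core is built from alpha rings, which gate the entry, and beta rings, which hold the proteolytic sites, and a regulatory particle with an ATPase base and a lid binds, unfolds and deubiquitinates the substrates. Tumor cells depend on it heavily, and under interferon its catalytic beta subunits can be exchanged for inducible ones, which favours peptides that fit MHC class I. The genes described here are the 45 of the 21931 genes in the deposited table whose symbol is Psma, Psmb, Psmc, Psmd, Psme, Psmf or Psmg followed by a number, leaving out the 3 inducible catalytic subunits Psmb8, Psmb9 and Psmb10. They fall into 7 alpha-ring genes, 7 beta-ring genes, 6 ATPases, 3 further base subunits, 8 lid subunits, 7 assembly chaperones, 4 activators, 1 inhibitor and 2 tissue-restricted core subunits.

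The RNA came from subcutaneous tumors of MC38, a mouse colon cancer line, in wild-type C57BL/6J mice that were 6 to 8 weeks old at implantation. The mice carried a tumor on both sides. For cryoablation, a probe froze 1 of these tumors on day 7 in 2 cycles, each of 20 s by the labels and longer by the study's methods, and the unfrozen tumor of the other side was taken 5 days later. By the labels, 9 tumors were controls and 8 came from the cryoablation group. The text of the study gives the sizes of both groups the other way round. The labels were followed here, and exchanged labels would turn the sign of every fold change. The study reports hemoglobin genes, S100A8 and S100A9 as down-regulated in control against cryoablation. By the labels, 4 of 4 erythroid genes tested were likewise higher in the cryoablation group at an unadjusted p under 0.05 in edgeR, where 3.74% of all genes were. The labels do not say which side was taken from the control mice, whether these mice had a sham procedure, or whether every tumor came from a mouse of its own, so the p values measure the spread between these samples. Of the 10 epithelial and intestinal genes written down as markers of the MC38 cells, 5 passed the filter on low counts, Cdx2 was at 0 in every tumor, and the summed level of the list ran from 11.5 to 215 CPM, the count scaled to the normalized total of the tumor. In whole-tumor RNA, fewer cells of a type and less RNA per cell cannot be told apart.

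Total counts were between 14154687 and 17898672 per control tumor and between 13524899 and 16847050 per cryoablation tumor, and 3 counts, the limit that a count of 0 allows for counting error only, were worth 0.168 to 0.222 CPM. Tumors differed in how short and long genes stood against the control median. In cryoablation tumors 2, 4 and 5, and less in control tumors 1 and 5, short genes lay high and long genes low. The median of the 2602 shortest genes tested (up to 2520 bases) was 0.63, 0.58 and 0.78 above the control median (log2 CPM) in cryoablation tumors 2, 4 and 5 and 0.35 above it in both control tumors. That of the 2601 longest (from 7637 bases) was at -0.41, -0.33 and -0.56 in these cryoablation tumors. The trend was graded, as the shortest genes were at 0.15 and 0.13 in cryoablation tumors 1 and 8 and at -0.22 in tumor 7. The groups are therefore also compared without cryoablation tumors 2, 4 and 5, and without these and control tumors 1 and 5, which was added after seeing the data.

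Promoter sequences are shown for a pair of catalytic subunits, for the ubiquitin receptor Psmd4 and for the chaperone Psmg3, because these are the members whose control is best described or whose fitted differences were large within their class. Each window runs from 250 bases before to 50 bases after the start of transcription, 5′ to 3′ on the strand of the gene, from RefSeq on GRCm38.p6. Capitals mark the motifs searched on both strands, which were TGACNNNGC (the core of the antioxidant response element bound by Nfe2l1 and Nfe2l2 with small Maf proteins), CCAAT (bound by NF-Y) and CCGGAAG (bound by ETS factors), and no matches of different motifs overlapped in the members.
Psmb5 (chr14:54617946-54618245, minus strand): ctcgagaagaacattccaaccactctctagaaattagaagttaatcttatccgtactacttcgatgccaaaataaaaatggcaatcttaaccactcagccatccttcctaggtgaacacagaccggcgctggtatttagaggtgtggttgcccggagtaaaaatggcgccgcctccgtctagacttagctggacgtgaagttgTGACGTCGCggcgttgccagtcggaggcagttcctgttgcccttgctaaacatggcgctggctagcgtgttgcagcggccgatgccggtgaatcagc
Psmb6 (chr11:70525107-70525406, plus strand): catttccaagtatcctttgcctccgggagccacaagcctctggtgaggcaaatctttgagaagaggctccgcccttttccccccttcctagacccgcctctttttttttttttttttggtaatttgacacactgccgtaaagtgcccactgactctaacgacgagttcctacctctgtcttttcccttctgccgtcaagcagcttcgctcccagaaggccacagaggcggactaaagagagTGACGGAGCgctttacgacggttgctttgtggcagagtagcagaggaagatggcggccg
Psmd4 (chr3:95042565-95042864, minus strand): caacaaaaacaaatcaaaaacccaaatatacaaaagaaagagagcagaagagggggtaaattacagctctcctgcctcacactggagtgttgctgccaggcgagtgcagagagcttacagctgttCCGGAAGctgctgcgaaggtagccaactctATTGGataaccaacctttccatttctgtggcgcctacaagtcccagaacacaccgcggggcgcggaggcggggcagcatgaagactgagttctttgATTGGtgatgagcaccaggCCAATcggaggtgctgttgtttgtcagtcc
Psmg3 (chr5:139826845-139827144, minus strand): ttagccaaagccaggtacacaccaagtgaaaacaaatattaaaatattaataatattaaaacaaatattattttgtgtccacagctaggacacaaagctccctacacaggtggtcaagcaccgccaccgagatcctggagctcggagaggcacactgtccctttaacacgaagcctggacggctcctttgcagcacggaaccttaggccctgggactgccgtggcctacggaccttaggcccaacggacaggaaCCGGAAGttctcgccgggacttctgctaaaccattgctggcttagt

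A promoter window was matched for 37 of the 45 members. TGACNNNGC was found in 6 of them (16.2%), namely Psmb5, Psmb6, Psmc6, Psmd9, Psmd12 and Psme4, against 16.9% of the 10299 genes tested that had a window and 14.0% of all 27025 windows. In Psmb5 the match begins 47 bases before the start and in Psmb6 9 bases before it. CCAAT was found in 13 members (35.1%), against 42.8% of the genes tested and 41.1% of all windows, and Psmd4 holds 3 matches. Searched on the given strand only, this comparison turned, with 12 members (32.4%) against 25.2% of the genes tested and 23.7% of all windows. CCGGAAG was found in 14 members (37.8%), among them Psmd4 and Psmg3, against 19.6% of the genes tested and 9.93% of all windows. These shares describe letters in a window and not binding, which was not measured.

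Per length, the proteasome genes were among the well expressed genes of the tumors. The 43 members that passed the filter on low counts had a median of 48.7 FPKM (mean over the 17 tumors, as deposited), against 6.58 FPKM over all 13005 genes that passed, and 28 of the 43 lay in the top 10%. Psmb4, a non-catalytic beta subunit, was the highest with 169 FPKM and Psmg3 the lowest with 2.69 FPKM, a 62.8-fold range. The alpha ring spanned 31.2 (Psma3) to 126 FPKM (Psma6), the beta ring 19.7 (Psmb7) to 169 FPKM, and the ATPases, which form a ring with a single copy of each, 35.8 (Psmc2) to 103 FPKM (Psmc5), a 2.88-fold range and the narrowest among the classes with more than 1 member. In the base, Psmd2 stood at 110 FPKM and Psmd1 at 21.3 FPKM, and in the lid Psmd7 at 144 FPKM and Psmd11 at 20.6 FPKM. The activators Psme1 and Psme2, whose proteins form a mixed ring on the core, stood at 91.3 and 91.9 FPKM, Psme4 at 16.6 FPKM and the inhibitor Psmf1 at 5.57 FPKM. Ordered by level within each class, 30 of 35 pairs of neighbours had ranges over tumors that overlapped. The exceptions were Psma1 over Psma2, Psmd4 over Psmd1, Psmd7 over Psmd8, Psmg1 over Psmd5 and Psme3 over Psme4. Psme2 has a near-identical copy, Psme2b, with 417 to 909 counts per tumor, and its value is uncertain to that extent.

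**Figure D1:**
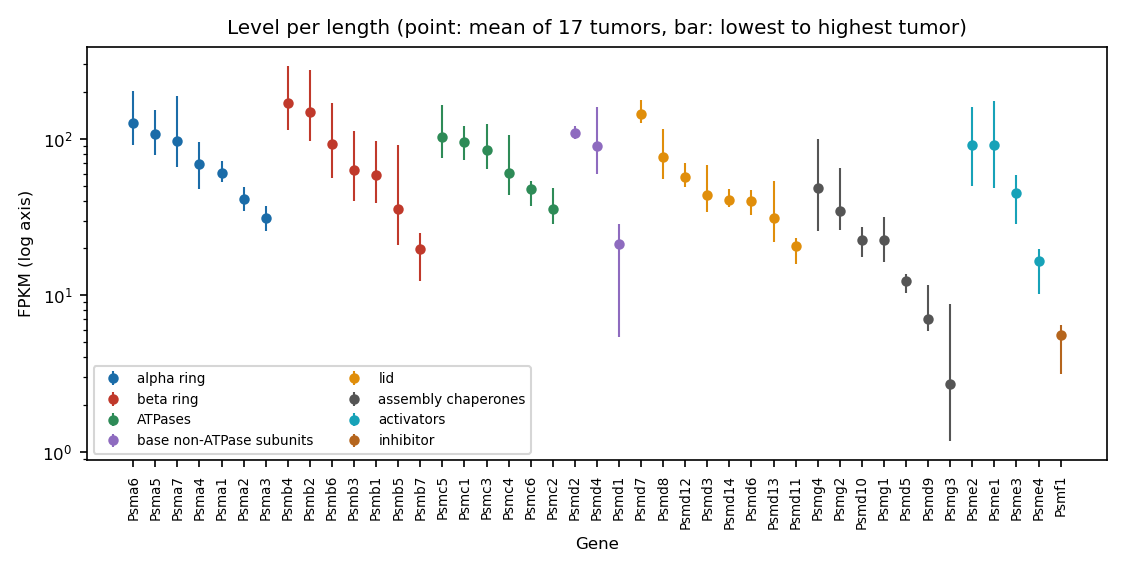
Level per length of the 43 expressed proteasome genes by class. The vertical axis is FPKM on a log scale, each point is the mean of 17 tumors and each bar runs from the lowest to the highest tumor. Psmb4 is highest at 169 FPKM and Psmg3 lowest at 2.69 FPKM, and the bars of most neighbouring genes of a class overlap.

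A pair of members did not pass the filter. Psmb11, the beta subunit of the thymus proteasome, had 0 to 2 counts in each tumor, which is within the limit that a count of 0 allows. Psma8, the alpha subunit of the sperm-forming cells, had 1 to 13 counts in each tumor, or at most 1.12 CPM. Neither enters the comparisons of groups.

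To ask whether the proteasome genes of the distant tumor differed after cryoablation of the other tumor, edgeR's quasi-likelihood test was fitted to all 13005 genes and its p values were adjusted over all of them. After adjustment 0 of the 43 proteasome genes and 0 of all genes (0%) passed 0.05, and the smallest adjusted p was 0.728 for both. At an unadjusted p under 0.05, 1 member was higher in the cryoablation group, Psmg3, where 3.74% of all genes tested were, and 0 members were lower, where 1.17% of all genes were. The threshold of the study asks for a log2 fold change beyond 1 in either direction with an unadjusted p under 0.05, and 0 members passed it, where 0.492% of all genes did. By exact permutation of the tumors between groups (two-sided), 0 members had a p under 0.05, where 2.97% of all genes did, and in 0 members and 0 of all genes tested (0%) were the groups without overlap.

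The fitted differences nevertheless leaned to the higher side. The log2 fold change of cryoablation over control was above 0 in 38 of the 43 members, where 48.0% of all genes tested were, and its median was 0.27, against -0.01 over all genes. By class the median log2 fold change was 0.45 in the beta ring, 0.35 in the assembly chaperones, 0.24 in the activators, 0.23 in the ATPases, 0.22 in the alpha ring, 0.18 in the lid and 0.06 in the other base subunits. The members are transcripts of the same tumors and are not replicates, so these medians carry no test. Without cryoablation tumors 2, 4 and 5 the direction turned, with 3 of 43 members above 0 and a median of -0.12. That fit takes tumors with high values from 1 group only and keeps control tumors 1 and 5, so a lower median follows from the choice. Without all 5 of these tumors, 31 of 43 members were above 0, with a median of 0.04. The median was 0.13 without cryoablation tumor 5 alone, 0.13 with sample quality weights in limma voom, and 0.14 with an offset for gene length.

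**Figure D2:**
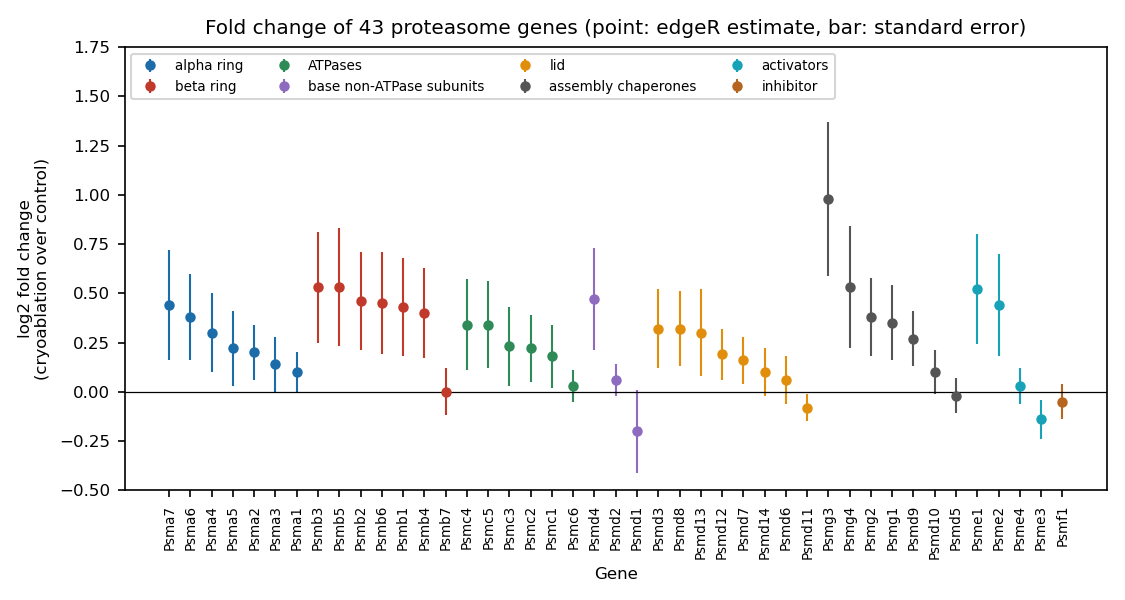
Log2 fold change of cryoablation (n = 8) over control (n = 9) of the 43 proteasome genes tested, ordered within each class. Points are edgeR estimates and bars are 1 standard error. Psmg3 has the highest estimate, 0.98, and Psmd1 the lowest, -0.20, and 38 estimates lie above 0.

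Tumors in which most members lay above the control median were found in both groups. In cryoablation tumors 2, 4 and 5, 40, 35 and 40 of the 43 members were above the control median, and in control tumors 1 and 5, 39 and 41 of them were. In control tumors 4 and 9 it was 36 and 25, and in cryoablation tumors 1 and 8 it was 34 and 35. This count therefore does not set the first 5 tumors apart, and the size of the shift, given below, does. The lowest counts in each group were 2 of 43 in control tumor 3 and 4 of 43 in cryoablation tumor 7. Between 40.4% and 51.7% of all genes tested were above the control median in every tumor, so that the members lay on the same side of the control median far more often than the genes at large.

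Against the control median, the median of the members (log2 CPM) was 0.72, 0.61 and 0.97 higher in cryoablation tumors 2, 4 and 5. It was 0.43 and 0.59 higher in control tumors 1 and 5. In the other 7 control tumors it lay between -0.24 and 0.14, and in the other 5 cryoablation tumors between -0.19 and 0.17. Outside the 5 tumors named, the groups therefore overlapped over nearly their whole ranges. In cryoablation tumors 2, 4 and 5, 31, 28 and 35 of the 43 members exceeded every control tumor, where 24.6%, 23.4% and 30.8% of all genes did, and in the other cryoablation tumors 0 to 2 members did. The share of all genes above every control tumor was 21.5% in cryoablation tumor 7, with 1 member, and 12.4% in tumor 6, with 0 members, and 4.28% to 4.88% in tumors 1, 3 and 8.

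**Figure D3:**
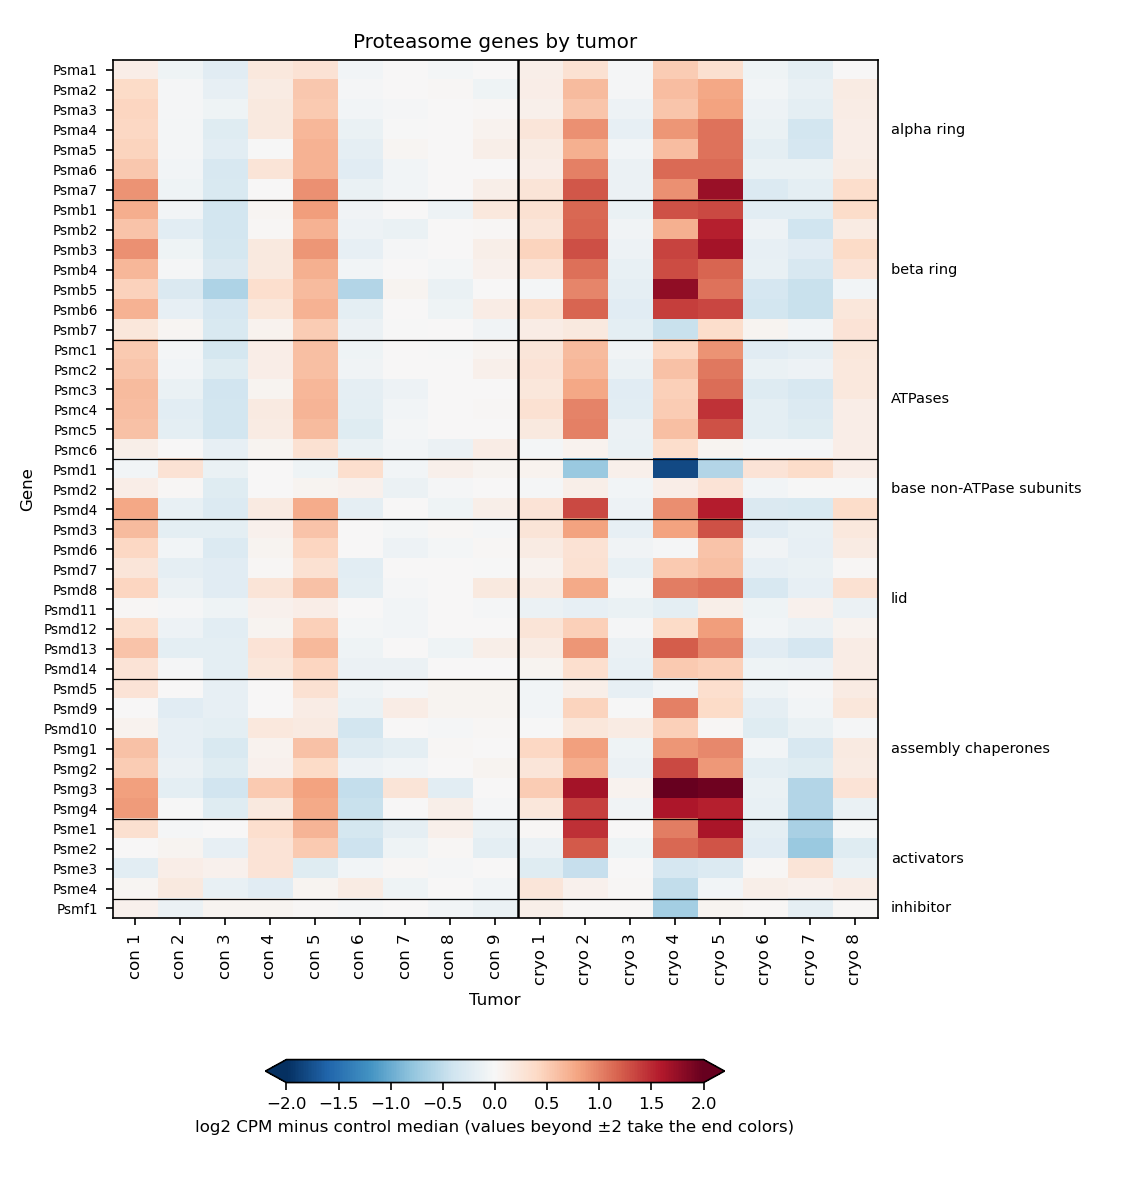
Proteasome genes (rows, by class) in the 9 control (con) and 8 cryoablation (cryo) tumors (columns). Color is log2 CPM minus the control median, red for higher and blue for lower, and values beyond the scale take its end colors, as does Psmg3 in cryo 4 at 2.53. The shift of most rows to red is largest in con 1, con 5, cryo 2, cryo 4 and cryo 5. Most rows also lie above the control median, by less, in con 4, con 9, cryo 1 and cryo 8. Psmd1 is blue in cryo 2, cryo 4 and cryo 5.

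Gene length moved with the same tumors. The members tested had a median length of 2808 bases, against 4467 bases over all genes tested. In cryoablation tumor 5 the 13 members of up to 2000 bases had a median of 1.14 over the control median (log2 CPM), against 0.99 over the 1644 genes of that length. The 18 members between 2000 and 3500 bases stood at 1.02 in that tumor, against 0.31 over the 3002 genes of that length, and the 12 longer members at 0.36, against -0.29. In control tumor 5 the middle class stood at 0.62 for the members and 0.15 for all genes, and in cryoablation tumor 4 at 0.52 and 0.16. The longest class of all genes runs to 123179 bases and that of the members to 8382 bases, so the lengths within it are not alike. With an offset for the length trend of each tumor, 38 of 43 members had a log2 fold change above 0 and 2, Psmd9 and Psmg3, were higher at an unadjusted p under 0.05 in edgeR, where 4.36% of all genes were.

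Ribosomal protein and epidermal genes moved with the same 5 tumors, and other lists with part of them. The median of 75 ribosomal protein genes was 1.48, 1.60 and 1.83 over the control median (log2 CPM) in cryoablation tumors 2, 4 and 5, and 0.86 and 1.03 in control tumors 1 and 5. Summed over 4 erythroid genes, the level ran from 6.16 to 74.1 CPM in the control group. There control tumor 5 was highest, while control tumor 1, at 34.1 CPM, was below control tumor 4 at 37.7 CPM. In the cryoablation group it ran from 24.8 to 173 CPM, and tumors 2, 4 and 5 had 139, 89.3 and 173 CPM. Of these genes 4 of 4 were higher at an unadjusted p under 0.05, where 3.74% of all genes tested were. The epidermal keratin genes Krt1, Krt5, Krt10 and Krt14 summed to 444 and 424 CPM in control tumors 1 and 5 and to 442, 408 and 663 CPM in cryoablation tumors 2, 4 and 5, against at most 314 CPM in the other tumors. The 10 epithelial genes of the tumor cell list reached 142, 142 and 215 CPM in these cryoablation tumors, against at most 97.3 CPM in the control group. Control tumors 1 and 5 had 24.1 and 40.0 CPM of them. The 6 macrophage genes summed to 2480, 1960 and 2890 CPM in cryoablation tumors 2, 4 and 5 and to 605 to 1270 CPM in the other cryoablation tumors. In the control group they summed to 781 to 2220 CPM, highest in control tumor 4, with 1480 and 1500 CPM in control tumors 1 and 5. The 6 proliferation genes overlapped, with 1570 to 2370 CPM in the control and 1880 to 2280 CPM in the cryoablation group. Of the other cell type lists, 2 of 4 neutrophil genes tested and 2 of 4 adipocyte genes were higher and 1 of 6 macrophage genes lower at an unadjusted p under 0.05, as 1 of 3 epidermal genes tested was higher, and 0 of the leukocyte, T cell, NK cell, fibroblast, endothelial and muscle genes passed, and the neutrophil marker Ly6g had at most 3 counts in every tumor. Over all genes tested, 3.74% were higher and 1.17% lower at this threshold, and 0 passed 0.05 after adjustment, so no marker gene did. The 5 tumors with high values had total counts between 13524899 and 14468018, while control tumor 4 and cryoablation tumor 1 had 14815325 and 14240285. The part of length, of depth and of other cells in the proteasome values was not tested.

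**Figure D4:**
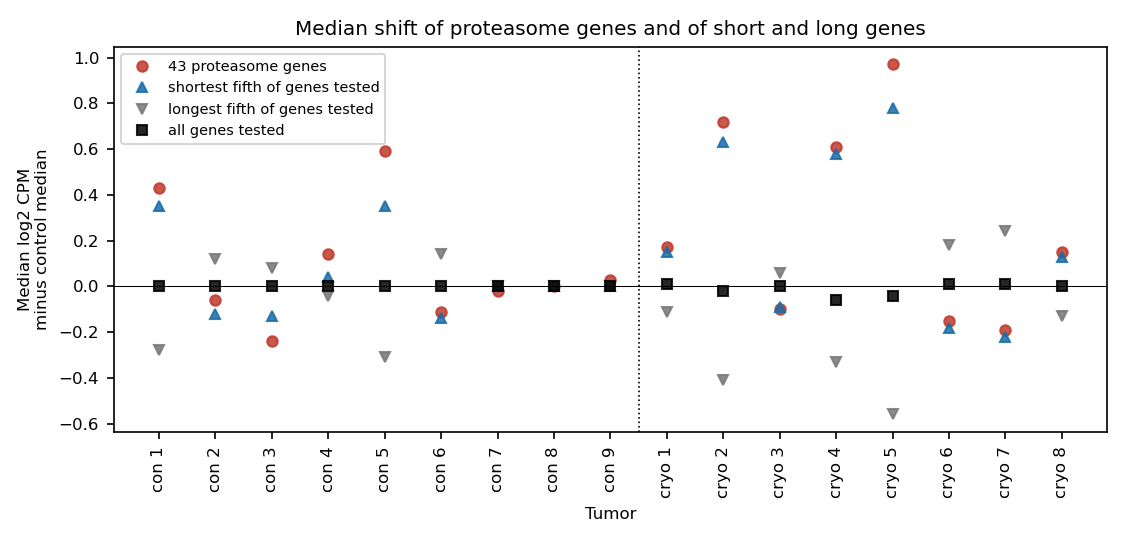
Median of log2 CPM minus the control median, per tumor, for the 43 proteasome genes (circles), for the shortest (upward triangles) and longest (downward triangles) of 5 equal length classes of the genes tested, and for all genes tested (squares). In cryo 5 the proteasome genes stand at 0.97, the short genes at 0.78 and the long genes at -0.56.

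In the alpha ring, 7 of 7 genes had a log2 fold change above 0 and 0 passed an unadjusted p of 0.05. Psma6 (ENSMUSG00000021024, listed at chromosome 12, 55431007 to 55465239) had the highest level per length and the smallest p of the ring. It ran from 103 to 209 CPM with a median of 128 in the control group and from 117 to 284 CPM with a median of 143 in the cryoablation group. In 3 cryoablation tumors it was above every control tumor, and the others lay within the control range. The log2 fold change was 0.38 ± 0.22 (SE; edgeR adjusted p = 0.728). With the offset for gene length it was 0.10, and in limma voom with sample quality weights 0.16. It was -0.15 without cryoablation tumors 2, 4 and 5 and 0.04 without these and control tumors 1 and 5. Estimates in the ring ran from 0.10 in Psma1 to 0.44 in Psma7.

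The beta ring had the highest median estimate of the classes, and Psmb7 stood apart from its other subunits. Psmb5, which carries the chymotrypsin-like site, the main target of proteasome inhibitors in the clinic, is listed at chromosome 14, 54851576 to 54855479. It ran from 17.5 to 41.6 CPM with a median of 26.9 in the control group and from 19.7 to 92.4 CPM with a median of 26.1 in the cryoablation group. The medians were thus nearly the same, and 3 cryoablation tumors lay above every control tumor while 5 lay below the control median. The fitted log2 fold change was 0.53 ± 0.30 (SE; edgeR adjusted p = 0.728). It was -0.25 without cryoablation tumors 2, 4 and 5 and -0.05 without these and control tumors 1 and 5. With the offset for gene length it was 0.12, Psmb5 being 899 bases long, and in limma voom with sample quality weights 0.09.

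Psmb6 carries the caspase-like site and is listed at chromosome 11, 70416193 to 70418684. It ran from 109 to 223 CPM with a median of 138 in the control group and from 101 to 358 CPM with a median of 167 in the cryoablation group, with a log2 fold change of 0.45 ± 0.26 (SE; edgeR adjusted p = 0.728). Psmb7, with the trypsin-like site (chromosome 2, 38478048 to 38534099), ran from 52.9 to 92.4 CPM with a median of 65.0 in the control group and from 47.5 to 82.8 CPM with a median of 70.0 in the cryoablation group. Here 0 cryoablation tumors exceeded the control range, and the log2 fold change was 0.00 ± 0.12 (SE; edgeR adjusted p = 0.991). Psmb7 shares its position with Nek6 on the other strand, which had 474 to 1036 counts beside the 608 or more of Psmb7, and the strand setting of the counting is not given in the sources used here.

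The structural beta subunits followed Psmb5 and Psmb6. Psmb3 ran from 83.7 to 201 CPM with a median of 107 in the control group and from 91.4 to 340 CPM with a median of 142 in the cryoablation group. Psmb4 ran from 214 to 429 CPM with a median of 263 and from 211 to 648 CPM with a median of 319. In both genes 3 cryoablation tumors lay above every control tumor and the others within or near the control range. The log2 fold changes were 0.53 ± 0.28 for Psmb3 and 0.40 ± 0.23 for Psmb4 (SE; edgeR adjusted p = 0.728 for both), and those of Psmb1 and Psmb2 were 0.43 and 0.46.

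The RNA of each inducible subunit can be set against that of its constitutive counterpart as a ratio within each tumor. Exchange of the proteins was not measured. The genes of a pair also differ in length, with 3381 and 899 bases for Psmb8 and Psmb5. Psmb9 and Psmb6 have 3660 and 1872 bases, and Psmb10 and Psmb7 1705 and 3421. The part of length and of other cells in the ratios was not tested. Psmb8, which replaces Psmb5, ran from 41.7 to 99.1 CPM with a median of 64.0 in the control group and from 42.9 to 213 CPM with a median of 63.4 in the cryoablation group. The fitted log2 fold change was 0.75 ± 0.31 (SE; edgeR unadjusted p = 0.0261, adjusted p = 0.728), and the unadjusted p was 0.0797, 0.0604 and 0.0845 without cryoablation tumors 2, 4 or 5. Psmb10 and Psmb9, which replace Psmb7 and Psmb6, had estimates of 0.65 ± 0.32 and 0.29 ± 0.21 (SE; edgeR adjusted p = 0.728 and 0.734). As in Psmb5 and Psmb6, but not in Psmb7, 3 cryoablation tumors exceeded the control range in each of these genes. Without cryoablation tumors 2, 4 and 5 the estimates turned to -0.17 in Psmb8, -0.30 in Psmb10 and -0.11 in Psmb9. Without these and control tumors 1 and 5 they were -0.07, -0.17 and -0.15, and limma voom with sample quality weights gave 0.10, 0.05 and -0.06.

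The log2 ratio of Psmb8 to Psmb5 (in CPM) ran from 0.62 to 1.96 with a median of 1.22 in the control group and from 0.80 to 1.94 with a median of 1.32 in the cryoablation group. The ranges lay on each other, and the means differed by 0.15 (two-sided exact permutation test, p = 0.445, 0.668 adjusted over the 3 ratios). For Psmb9 to Psmb6 the ratio ran from -1.77 to 0.34 with a median of -0.40 and from -1.05 to 0.27 with a median of -0.65, and the means differed by -0.07 (exact permutation test, p = 0.802, 0.802 adjusted).

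The ratio of Psmb10 to Psmb7 split the cryoablation group. It ran from 1.34 to 1.92 with a median of 1.74 in the control group and from 0.80 to 3.54 with a median of 1.68 in the cryoablation group. Cryoablation tumors 2, 4 and 5 stood at 3.10, 3.54 and 2.93, above every control tumor, and 3 of the other 5 cryoablation tumors stood below 1.40, at 0.80, 1.22 and 1.37. The means differed by 0.39 (exact permutation test, p = 0.270, 0.668 adjusted over the 3 ratios), and by 0.17 without cryoablation tumor 4 and -0.30 without tumors 2, 4 and 5. Per length, the median over tumors of the ratio was 6.73 for Psmb10 to Psmb7, 0.633 for Psmb8 to Psmb5 and 0.369 for Psmb9 to Psmb6.

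**Figure D5:**
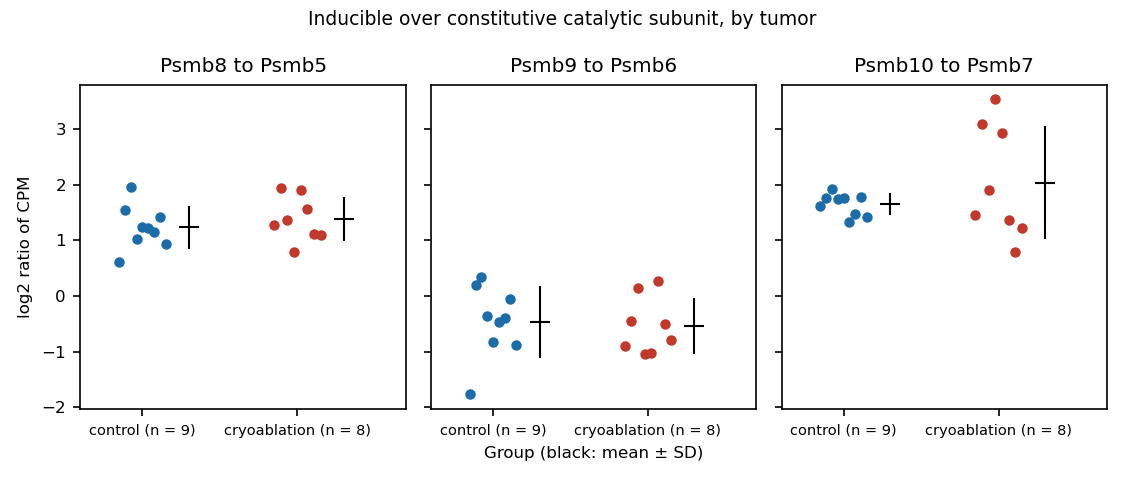
Log2 ratio of CPM of each inducible catalytic subunit to its constitutive counterpart, 1 point per tumor, with the mean and SD of each group in black. The groups overlap for Psmb8 to Psmb5 and Psmb9 to Psmb6, and for Psmb10 to Psmb7 the cryoablation tumors run from 0.80 to 3.54, against 1.34 to 1.92 in the control group.

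The ATPases, which unfold the substrate and thread it into the core, had estimates above 0 in 6 of 6 genes, from 0.03 in Psmc6 to 0.34 in Psmc4, and 0 passed an unadjusted p of 0.05. Psmc5 ran from 95.7 to 190 CPM with a median of 123 in the control group and from 103 to 299 CPM with a median of 138 in the cryoablation group. It exceeded the control range in 2 cryoablation tumors, and its log2 fold change was 0.34 ± 0.22 (SE; edgeR adjusted p = 0.728). With the offset for gene length this was 0.09, and in limma voom with sample quality weights 0.17. Psmc6 was nearly level, with medians of 164 and 165 CPM.

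The other subunits of the base went different ways. Psmd2, a large scaffold subunit that binds shuttle proteins, ran from 368 to 478 CPM with a median of 437 in the control group and from 422 to 527 CPM with a median of 435 in the cryoablation group, with a log2 fold change of 0.06 ± 0.08 (SE; edgeR adjusted p = 0.793). The ranges overlapped, and 2 cryoablation tumors exceeded the control range. Psmd4, the ubiquitin receptor, ran from 162 to 336 CPM with a median of 197 and from 161 to 585 CPM with a median of 247. It exceeded the control range in 3 cryoablation tumors, and its log2 fold change was 0.47 ± 0.26 (SE; edgeR adjusted p = 0.728).

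Psmd1, the other large scaffold, lay low in the tumors in which most members lay high. It is listed at chromosome 1, 85992109 to 86066873, with a length of 7265 bases. Its raw counts were 1076, 566 and 1070 in cryoablation tumors 2, 4 and 5, and at least 1905 in every other tumor. In CPM it ran from 141 to 195 with a median of 155 in the control group and from 44.2 to 198 with a median of 164 in the cryoablation group. These 3 tumors were below every control tumor, and the other cryoablation tumors lay within or just above the control range. Its log2 fold change was -0.20 ± 0.21 (SE; edgeR adjusted p = 0.772), and 0.13 without these tumors. Psmd1 shares its position with Htr2b (11 to 70 counts) and with the predicted gene Gm21972, which was at 0 counts in every tumor.

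In the lid, 7 of 8 estimates were above 0 and 0 passed an unadjusted p of 0.05. Psmd7, the partner of the deubiquitinase Psmd14, ran from 268 to 386 CPM with a median of 312 in the control group and from 277 to 472 CPM with a median of 323 in the cryoablation group, with a log2 fold change of 0.16 ± 0.12 (SE; edgeR adjusted p = 0.737). Psmd8 ran from 170 to 299 CPM with a median of 199 and from 159 to 421 CPM with a median of 236, with a log2 fold change of 0.32 ± 0.19 (SE; edgeR adjusted p = 0.728). Both exceeded the control range in the tumors with high proteasome values, 2 tumors for Psmd7 and 3 for Psmd8.

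Psmd11, a lid scaffold of 6383 bases, had the narrowest control range of the lid relative to its level and the lowest estimate of the class. It ran from 125 to 148 CPM with a median of 134 in the control group and from 117 to 145 CPM with a median of 123 in the cryoablation group, and 5 of 8 cryoablation tumors were below every control tumor. The log2 fold change was -0.08 ± 0.07 (SE; edgeR adjusted p = 0.737), and the two-sided exact permutation test gave p = 0.0717 (0.741 adjusted over all genes tested).

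The chaperones that assemble the proteasome held the member with the highest estimate. Psmg3, which with Psmg4 helps to build the alpha ring (listed at chromosome 5, 139809347 to 139812640), had 53 to 370 raw counts per tumor and was the least expressed of the 43. It ran from 3.47 to 8.74 CPM with a median of 4.89 in the control group and from 3.19 to 28.9 CPM with a median of 6.48 in the cryoablation group. In 6 of 8 cryoablation tumors it was above the control median, and in 3 above every control tumor. The log2 fold change was 0.98 ± 0.39 (SE; edgeR unadjusted p = 0.0220, adjusted p = 0.728), and the exact permutation test gave p = 0.134. Without cryoablation tumor 4, where it had 370 counts, the estimate was 0.61 (edgeR, unadjusted p = 0.0995). It was 0.83 without tumor 5 (edgeR, unadjusted p = 0.0533) and 0.37 in limma voom with sample quality weights (unadjusted p = 0.108). Without cryoablation tumors 2, 4 and 5 it turned to -0.14, and without these and control tumors 1 and 5 it was 0.11.

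The number of members higher at an unadjusted p under 0.05 moved with single tumors. Without cryoablation tumor 4 or 5 it was 0 in edgeR. Without control tumor 1 or 5 it was 5 and 6, and without cryoablation tumors 1, 3, 6 or 7 it was 2, 5, 8 and 13, while leaving out cryoablation tumor 7 also brought in Psme3 as 1 lower gene. The share of all genes tested that were higher moved as well. It was 1.47% and 1.35% without cryoablation tumor 4 or 5, 7.52% and 7.53% without control tumor 1 or 5, and 4.05%, 7.84%, 7.96% and 8.08% without cryoablation tumors 1, 3, 6 or 7. In every one of these fits 0 members had an adjusted p under 0.05.

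Psmg4 ran from 15.0 to 36.9 CPM with a median of 20.4 in the control group and from 13.6 to 62.8 CPM with a median of 21.6 in the cryoablation group. The medians were close and 3 cryoablation tumors exceeded the control range. Its log2 fold change was 0.53 ± 0.31 (SE; edgeR adjusted p = 0.728), and -0.03 with the offset for gene length, Psmg4 being the shortest member at 555 bases. Psmg1 and Psmg2, the other pair that builds the alpha ring, had estimates of 0.35 and 0.38, and the base chaperones Psmd9, Psmd10 and Psmd5 had estimates of 0.27, 0.10 and -0.02.

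Among the activators, the interferon-responsive pair and the other two differed in their pattern over tumors. Psme1 ran from 126 to 259 CPM with a median of 161 in the control group and from 103 to 503 CPM with a median of 163 in the cryoablation group, and Psme2 from 105 to 204 CPM with a median of 141 and from 84.4 to 335 CPM with a median of 131. In both, 3 cryoablation tumors lay above every control tumor and 1 below. The log2 fold changes were 0.52 ± 0.28 and 0.44 ± 0.26 (SE; edgeR adjusted p = 0.728 for both). They were -0.27 and -0.30 without cryoablation tumors 2, 4 and 5, and -0.12 and -0.20 without these and control tumors 1 and 5. Of the 6 interferon-gamma response genes written down beside the members, 0 passed an unadjusted p of 0.05, and their sum ran from 965 to 3100 CPM in the control and from 1330 to 2550 CPM in the cryoablation group.

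Psme3, the nuclear activator, ran from 114 to 166 CPM with a median of 136 in the control group and from 98.8 to 163 CPM with a median of 119 in the cryoablation group. It was below every control tumor in 4 cryoablation tumors, with a log2 fold change of -0.14 ± 0.10 (SE; edgeR adjusted p = 0.734). Psme4, a large single-chain activator, ran from 117 to 156 CPM and from 96.9 to 161 CPM, with medians of 137 and 145 CPM and a log2 fold change of 0.03 ± 0.09 (SE; edgeR adjusted p = 0.898). The inhibitor Psmf1 had nearly equal medians of 36.5 and 37.0 CPM over ranges of 33.3 to 38.9 CPM and 22.8 to 39.3 CPM, with a log2 fold change of -0.05 ± 0.09 (SE; edgeR adjusted p = 0.857).

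The other genes of the pathway were counted in lists. Of 7 core partners without a Psm symbol, 6 had an estimate above 0, and 1, Sem1, a small lid subunit, had an unadjusted p under 0.05. Sem1 ran from 53.9 to 137 CPM with a median of 70.3 in the control group and from 56.3 to 261 CPM with a median of 86.2 in the cryoablation group, with a log2 fold change of 0.73 ± 0.34 (SE; edgeR unadjusted p = 0.0422, adjusted p = 0.728). It exceeded the control range in 3 cryoablation tumors. The estimate turned to -0.20 without cryoablation tumors 2, 4 and 5 and was 0.08 without these and control tumors 1 and 5. The unadjusted p lay between 0.0546 and 0.132 when any of control tumors 2, 3, 4, 6, 7, 8 or 9 or cryoablation tumors 2, 4 or 5 was left out.

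Of the 4 ubiquitin genes, 4 had an estimate above 0, from 0.28 to 0.70, and 0 passed. Rps27a, which encodes ubiquitin fused to a ribosomal protein, ran from 463 to 1230 CPM with a median of 586 in the control group and from 476 to 2410 CPM with a median of 793 in the cryoablation group, with a log2 fold change of 0.70 ± 0.35 (SE; edgeR adjusted p = 0.728). In the complex of the unfoldase Vcp, which extracts ubiquitinated proteins, 4 of 5 estimates were above 0 and 0 passed, with Faf1 at 0.34 ± 0.19 (SE; edgeR adjusted p = 0.728).

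The genes that control proteasome transcription and those that deliver substrates did not lean upwards. Of the 8 genes for transcriptional control, 1 had an estimate above 0, where 48.0% of all genes tested did. Their lengths run from 2594 bases in Maff to 9553 bases in Ddi2, and the part of length was not tested. Among them Mafk, a small Maf partner of Nfe2l1, was the 1 gene lower at an unadjusted p under 0.05. It ran from 26.5 to 37.5 CPM with a median of 28.2 in the control group and from 16.2 to 34.0 CPM with a median of 22.2 in the cryoablation group, and 5 of 8 cryoablation tumors were below every control tumor. The log2 fold change was -0.30 ± 0.14 (SE; edgeR unadjusted p = 0.0400, adjusted p = 0.728), and -0.12 without cryoablation tumors 2, 4 and 5 (edgeR unadjusted p = 0.330). The unadjusted p lay between 0.0551 and 0.0798 when any of control tumors 3, 4 or 8 or cryoablation tumors 1, 2, 4, 5 or 8 was left out. Nfe2l1, the factor that raises proteasome genes when the protease is inhibited, had medians of 280 and 259 CPM and a log2 fold change of -0.05 ± 0.11 (SE; edgeR adjusted p = 0.862).

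Of the 4 shuttle factors counted, which carry ubiquitinated proteins to the base, 0 had an estimate above 0 and 0 passed an unadjusted p of 0.05 in edgeR. Ubqln4 ran from 93.1 to 125 CPM with a median of 113 in the control group and from 74.4 to 122 CPM with a median of 110 in the cryoablation group. The ranges overlapped, and 3 cryoablation tumors were below every control tumor. The log2 fold change was -0.14 ± 0.11 (SE; edgeR adjusted p = 0.737). It was 0.03 without cryoablation tumors 2, 4 and 5 and -0.02 without these and control tumors 1 and 5. The ubiquitin-activating enzymes Uba1 and Uba6 had estimates of -0.09 and -0.14, and Uba1 was below the control median in 7 of 8 cryoablation tumors.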

How the data were processed

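Bulk RNA sequencing of 9 control and 8 cryoablation tumors was analysed, with groups taken from the deposited labels. mRNA was prepared with a SMARTER kit and sequenced on a NovaSeq platform. The aligner, the counting program and the strand setting are not given in the sources used here. The authors deposited read counts per gene and tumor, which are not normalized, and FPKM computed from them, used here for levels per length only. The submitters' processing notes name GRCm38 (mm10), but the listed positions equal those of GENCODE M21 for 0 of the 45 members and 563 of 21878 shared genes, so positions are as the authors' table lists them, with no build, and were not combined with the RefSeq promoters.

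Counts were tested with edgeR 4.0.16 in R 4.3.3 (TMM, filterByExpr by group, quasi-likelihood F test, group as the only term) with Benjamini-Hochberg adjustment over 13005 genes. CPM are TMM-normalized. Standard errors were derived from the F statistic of each log2 fold change. Log2 CPM (prior count 2) were compared by exact permutation over all 24310 splits, whose smallest possible p is 4.11e-05.

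The members, lists and tests were chosen with earlier results of these data known. Genes given in full were the constitutive and inducible catalytic subunits, the activators, the smallest p and highest FPKM of each class, the 3 highest and 3 lowest fold changes, members that failed the filter, and the smallest p of each partner list. A gene of the partner lists is not reported here, and its list was counted without it. Other genes named with a value show the ends of a class or stand beside these and were chosen after their values were seen.

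Alternatives were DESeq2 1.42.0, upper-quartile normalization, voom of limma 3.58.1 with weights for sample quality, no filter, a mean of at least 10 counts, a prior count of 0.5, a gene-length offset (natural splines with 4 degrees of freedom), a replicate block, and leaving out single tumors or tumors 2, 4 and 5 of the cryoablation group. An offset for length and GC content, and leaving out control tumors 1 and 5 as well, were added after seeing the data. On simulated counts without a length trend, 200 genes were shifted by 2 on the log2 scale in either direction, more than any member's estimate. The quasi-likelihood test of 12942 genes recovered 98.5% of the 198 that passed the filter, with 3.94% of its calls false, and DESeq2 had 16.9% false. With a length trend simulated in cryoablation tumors 2, 4 and 5, 19.4% of the quasi-likelihood calls were false without the length offset and 4.88% with it. The main test of the real counts had no such offset.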

Additional observations from a re-analysis of the deposited data

Results flagged for a closer look

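Cryoablation tumor 4 lay far below the other 7 of its group in 3 genes. Psme4 stood at 96.9 CPM, with the next tumor at 132 CPM. Psmf1 stood at 22.8 CPM, with the next at 32.2 CPM. Uba1 stood at 387 CPM, with the next at 504 CPM. The gap to the nearest tumor was over the 95% critical value of Dixon's test for 8 samples. Over the 66 groups of values examined chance would give about 3.30 such tumors, at 1 in 20.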

How the results depend on the processing

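In every fit run 0 proteasome genes had an adjusted p under 0.05. The number higher at an unadjusted p under 0.05 was 1, and it was 2 with the gene-length offset and with the length and GC offset, 0 without cryoablation tumors 2, 4 and 5, 0 without these and control tumors 1 and 5, and 0 with the replicate block. In limma voom with sample quality weights the number stayed at 1, but the gene was Psmg1 in place of Psmg3. With 1 tumor left out the number higher ran from 0 to 13, the number lower from 0 to 1, the number past the study's threshold from 0 to 1 and the median from 0.13 to 0.32, while the share of all genes that were higher ran from 1.27% to 8.08%. DESeq2 put 1 gene past the study's threshold, Psmg3. The median was -0.12 without cryoablation tumors 2, 4 and 5 and 0.04 without these and control tumors 1 and 5.

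Of 29 named genes 3 kept their direction in every fit. Without cryoablation tumors 2, 4 and 5 the log2 fold changes of 24 turned, to Faf1 -0.03, Psma6 -0.15, Psmb10 -0.30, Psmb3 -0.14, Psmb4 -0.17, Psmb5 -0.25, Psmb6 -0.22, Psmb7 -0.01, Psmb8 -0.17, Psmb9 -0.11, Psmc5 -0.14, Psmd1 0.13, Psmd2 -0.03, Psmd4 -0.16, Psmd7 -0.08, Psmd8 -0.12, Psme1 -0.27, Psme2 -0.30, Psmf1 0.00, Psmg3 -0.14, Psmg4 -0.32, Rps27a -0.21, Sem1 -0.20 and Ubqln4 0.03. Without these and control tumors 1 and 5, 10 turned, to Psmb10 -0.17, Psmb5 -0.05, Psmb6 -0.01, Psmb8 -0.07, Psmb9 -0.15, Psmd1 0.10, Psme1 -0.12, Psme2 -0.20, Psmf1 0.04 and Psmg4 -0.07. Limma voom gave Psmb9 -0.06, Psme2 -0.03 and Psmf1 0.06. The length offset gave Psmd11 0.01, Psmf1 0.04 and Psmg4 -0.03, and the length and GC offset 0.03, 0.05 and -0.05. Psmb7 was at -0.01 with no filter, with upper-quartile normalization and with the block. With 1 tumor left out, Psmb7 ran from -0.04 to 0.07, Psme4 from -0.01 to 0.09 and Psmf1 from -0.08 to 0.02. The ratio of Psmb10 to Psmb7 was -0.30 without cryoablation tumors 2, 4 and 5 and -0.29 without these and control tumors 1 and 5, that of Psmb8 to Psmb5 was -0.04 without all 5, and that of Psmb9 to Psmb6 was 0.11 without the 3, and ran from -0.23 to 0.03 with 1 tumor left out. The cause was not tested.

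The tumors share only replicate numbers. Same-numbered tumors deviated together with correlations from -0.51 to 0.642, so the numbers were not taken to pair them. With the replicate block the median was 0.22, 37 of 43 members were above 0, and Psmg3 stood at 0.66 (edgeR unadjusted p = 0.0579).

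Depth limits Psmg3, at 53 to 370 counts, and the 2 members that failed the filter. Of the members, 10 share their position with another listed gene on the same or the other strand, and the strand setting of the counting is not given.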
